A study of Mus musculus with 6 samples.

Results

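The solute carrier transporter genes described here are those whose symbol has the form Slc, a family number, the letter a and a member number, and whose raw counts summed to at least 300 over the 6 libraries. This gave 143 of the 18491 genes in the deposited table. Another 65 matching genes lay under the minimum, so that 208 matched in all, and the iron transporters Slc25a37 and Slc40a1 were set aside by the rule. The 143 genes belong to 45 families. Slc25 holds 32 of them, Slc7 holds 7, Slc38 holds 6 and Slc2 holds 4, and the other families together hold 94. The members nearest the minimum were Slc39a8, Slc35a5 and Slc25a15, with 306, 320 and 323 counts in all, and the nearest genes below it were Slc22a21, Slc16a7 and Slc12a2, with 292, 264 and 229. All 143 passed the filter on low counts.

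Solute carriers are membrane proteins that move sugars, amino acids, nucleotides, metals and other small molecules across the plasma membrane and the membranes of organelles, one substrate or a few related ones per protein. Their genes are numbered by family, and each family tends to share a fold and a broad class of substrate. In dividing blood progenitors they set the supply of glucose and amino acids at the cell surface, and the Slc25 carriers connect the cytosol with the inside of the mitochondrion by exchanging ADP for ATP and by passing phosphate, metabolites and cofactors. Some amino acid carriers of the Slc7 family, called light chains, reach the cell surface only when joined to the Slc3a2 protein, their heavy chain, and the Slc16 lactate carriers use a partner such as basigin in the same way.

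RNA was sequenced from bone marrow cells of mice sorted by flow cytometry as haematopoietic stem and progenitor cells, in 3 wild-type and 3 Robo1 knockout libraries. Robo1 is a receptor for Slit guidance proteins. Cells of both groups were sorted 8 months after injection of poly(I:C), an RNA mimic of viral infection that induces interferon. In the knockout 3 doses of it switched on Mx1-cre, a recombinase under an interferon-responsive promoter that is active in blood cells and in other tissues such as liver. The alleles of the wild-type mice, and the strain and age of the animals, are not described in the labels. The labels conflict on the groups. Titles and the treatment field speak of a scramble shRNA control and of shRNA knockdown, that field gives ROBO1 for knockout library 1, ROBO2 for library 2 and ROBO3 for library 3, and the genotype field names ROBO1 knockdown for all of them. The grouping here follows the sample descriptions, WT and KO. Robo1 was not analysed here, and its transcript therefore gives no check of the genotype. Nothing in the labels says that each library is a different animal, so the spread behind each p-value is that of these 6 libraries and may be technical.

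Library totals ran from 42235077 to 58106099 counts. TMM scaling, which sets the bulk of genes level between libraries, gave factors of 1.44 to 1.52 in wild type and 0.66 to 0.69 in knockout, and scaling by total counts alone moved the median log2 fold change of all genes from -0.09 to -1.22. Levels below are in CPM, read counts scaled to a common library size with TMM, and fold changes are knockout over wild type. The value with total counts stands beside each called rise of a solute carrier gene because it can change the direction. Of 10 stem and progenitor marker genes 2 rose and 3 fell, and their summed level ran from 223 to 231 CPM in wild type and from 242 to 251 CPM in knockout. None of the 10 rose with total counts, and all 10 fell. The summed levels of several other marker lists moved more. Of 8 neutrophil granule and calprotectin genes 6 rose and none fell, with sums of 84824 to 95174 CPM against 265131 to 281011 CPM. Mpo and Elane carried most of these sums. The granule genes Camp and Ltf were not called, at log2 fold changes of -0.20 and 0.44 (edgeR adjusted p = 0.143 and 0.297). Of 8 eosinophil, basophil and mast cell genes 6 rose and none fell, with sums of 5901 to 7071 CPM against 43812 to 49528 CPM. Of 10 erythroid genes 2 rose and 3 fell, with sums of 911 to 1201 CPM against 2927 to 3515 CPM. Those sums were carried mostly by 2 globin genes. Of 8 B lineage genes 2 rose and 3 fell (11074 to 11886 CPM against 35468 to 37352 CPM). Igkc carried most of these sums, while Cd79a, Cd79b and Ebf1 fell. With total counts 5 neutrophil genes rose and 1 fell, and 4 eosinophil, basophil and mast cell genes rose and 2 fell. In the erythroid list 2 rose and 6 fell with that scaling, and in the B lineage list 1 rose and 5 fell. Of 5 lymphocyte genes of T and NK cells 1 rose and 1 fell (3369 to 3433 CPM against 6324 to 6738 CPM). Nearly all of these sums came from Nkg7, whose mean was 3379 CPM against 6499 CPM in knockout. Nkg7 was called lower with total counts (log2 fold change -0.19). Lck fell with TMM, and the median log2 fold change of the T and NK list was -0.55. Of 8 macrophage genes tested 1 rose and 1 fell (sums over 9 genes of 115 to 120 CPM against 111 to 117 CPM), and neither of the 2 stromal and endothelial genes tested was called, the sums with the untested Cxcl12 being 12.5 to 13.9 CPM against 9.78 to 12.9 CPM. Total counts gave no rise in either list, with 5 falls in the first and 1 in the second. Cd3e, Marco, Cdh5, Col1a1, Col1a2 and Lepr were not analysed here. The part of these shifts in the values below was not tested, and in bulk RNA fewer cells of a type and less RNA per cell cannot be told apart.

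Of the 143 solute carrier genes, 14 rose and 22 fell in knockout in edgeR's quasi-likelihood test at an adjusted p under 0.05, and 107 passed in neither direction. The largest rises by fold were those of the mitochondrial carriers Slc25a5 and Slc25a3, the glucose transporter Slc2a8, the haem transporter Slc48a1 and the amino acid heavy chain Slc3a2, and the falls were spread over carriers of lactate, zinc, copper and amino acids. The share called was 25.2%, against 31.7% of the 15474 genes tested, of which 17.2% rose and 14.4% fell. The median log2 fold change was -0.07 over the members and -0.09 over all genes tested. Most changes were small, with 137 members within 1 log2 unit of 0 and 4 called members past 2-fold, namely Slc25a5 and Slc25a3 upwards and Slc12a7 and Slc16a1 downwards. Of these only Slc25a5 stayed past 2-fold without each library in turn, since the log2 fold change nearest 0 was 0.98 for Slc25a3 and -0.94 for Slc16a1 (both without knockout library 2) and -0.80 for Slc12a7 (without wild-type library 1, edgeR adjusted p = 0.181). In all 36 called members the 3 knockout values lay wholly above or wholly below the 3 wild-type values. Called or not, 23 members lay wholly above and 34 wholly below, against 3439 and 3768 of the 15474 genes tested.

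The number and balance of these calls depended on the scaling and varied with the library left out. Calls over all genes also dropped in each fit with 1 library left out. With total counts only Slc25a5 rose and 128 members fell, with 14 called in neither direction and a member median of -1.21, where 4.24% of all genes tested rose and 70.7% fell. Of the 14 genes that rose with TMM, 13 had a log2 fold change below 0 with total counts and 10 of these were called lower. A correction for exon length and GC content gave 27 higher and 12 lower, so that the higher calls made up 69.2% of the calls in place of 38.9%. All 14 rises and 10 of the 22 falls remained under that correction, and the 12 falls lost were Slc4a2, Slc4a8, Slc7a4, Slc7a5, Slc12a7, Slc15a4, Slc25a28, Slc30a6, Slc30a7, Slc35a1, Slc49a4 and Slc66a2. Among the calls kept, it moved Slc7a6 to -0.31, Slc25a12 to -0.31, Slc31a1 to -0.29, Slc39a9 to -0.36 and Slc28a2 to 0.65 in log2 fold change, each by over 1.5 times. With DESeq2 the calls of Slc4a2, Slc7a5 and Slc25a28 were lost. Of the 14 rises 9 remained without wild-type library 2 and 9 without knockout library 2, where 9 and 11 members were called higher in all. Of the 22 falls 11, 12 and 10 remained without wild-type libraries 1, 2 and 3, 13 without knockout library 1 and 12 without knockout library 2, and in these fits 13, 12, 10, 19 and 12 members were called lower in all. Lower calls over all genes went in the same 5 fits from 2229 to 1774, 1356, 1419, 1996 and 1829. Higher calls over all genes went from 2669 to 2226 without wild-type library 2 and to 2290 without knockout library 2. The calls that remained in every fit with 1 library left out were 9 of the 14 rises and 8 of the 22 falls.

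**Figure D1:**
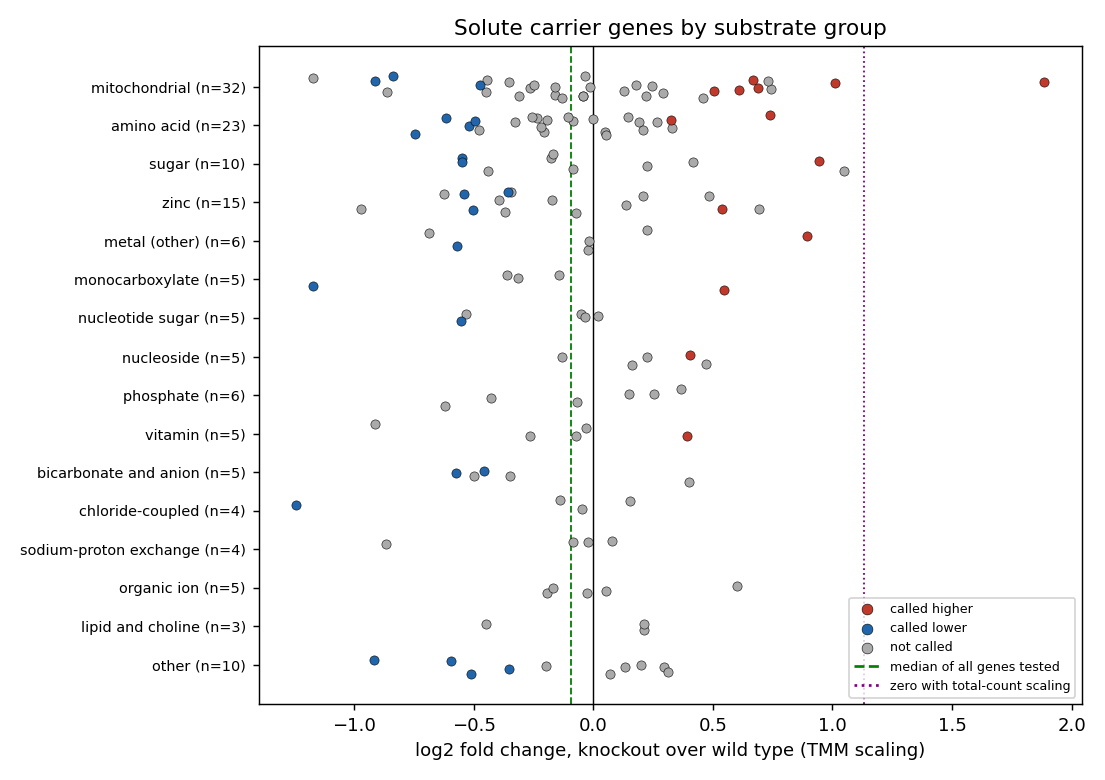
Log2 fold change of each of the 143 genes (x axis, knockout over wild type, TMM scaling) by substrate group (y axis, number of genes in brackets), with red for the 14 called higher, blue for the 22 called lower and grey for the rest. The dashed line is the median of all genes tested, -0.09, and the dotted line is where 0 falls with total-count scaling, beyond which only Slc25a5 lies among the called genes.

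Per unit of length the solute carrier RNA of these cells was dominated by a single gene. In the authors' FPKM values (fragments scaled by exon length and by library size), which carry no correction for composition, Slc25a5 stood at 1156 ± 69.6 in wild type (mean ± SD, n = 3) and 1952 ± 84.5 in knockout. The next in wild type were Slc25a3 at 177 ± 15.7, Slc35a4 at 138 ± 7.14, Slc3a2 at 121 ± 2.01 and Slc25a39 at 95.8 ± 6.16 FPKM. In knockout the order was Slc25a3 at 163 ± 5.02, Slc3a2 at 90.5 ± 3.24, Slc35a4 at 59.4 ± 1.93 and Slc25a4 at 47.4 ± 3.31 FPKM. Slc25a5 and Slc23a2, a vitamin C transporter, were the members with a higher mean FPKM in knockout, but for Slc23a2, at 0.375 ± 0.188 against 0.399 ± 0.374 FPKM, the groups overlapped, the ratio of counts scaled by library totals was 0.433 and the TMM log2 fold change was -0.07 (edgeR adjusted p = 0.894).

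Slc25a5 took 33.4, 29.7 and 29.3% of the counts on the 143 genes in wild-type libraries 1, 2 and 3, and 57.8, 57.9 and 60.4% in the knockout libraries. Each knockout share lay above each wild-type share, and shares within a library do not depend on the scaling. The other 31 Slc25 genes went from 23.7 ± 0.975% to 16.04 ± 0.840% of member counts, the Slc7 genes from 1.75 ± 0.0799% to 0.677 ± 0.0317%, the Slc38 genes from 2.53 ± 0.192% to 1.30 ± 0.0119%, the Slc2 genes from 0.522 ± 0.0302% to 0.361 ± 0.0525%, and all other families from 40.7 ± 1.04% to 22.9 ± 0.604% (n = 3 each). The other shares are shares of a total in which Slc25a5 grew. In CPM the Slc2 sum was 19.7 ± 0.906 against 26.4 ± 3.64 in knockout, the Slc38 sum was 95.1 in both groups, the Slc7 sum was 65.8 ± 2.35 against 49.6 ± 2.52 and the sum of all other families was 1535 ± 1.88 against 1678 ± 33.4 (n = 3 each). In CPM the sum over the 143 genes was 3769 ± 98.0 in wild type and 7319 ± 60.4 in knockout, and without Slc25a5 it was 2607 ± 18.9 and 3023 ± 88.4. As a share of all counts in a library, the 143 genes took 0.552 to 0.565% in wild type and 0.479 to 0.502% in knockout, so by that measure their summed share was lower in every knockout library.

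**Figure D2:**
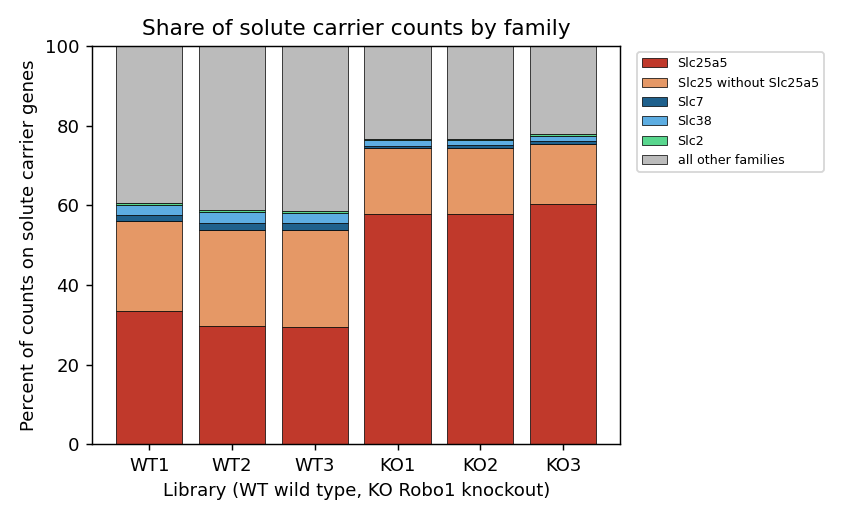
Share of the counts on the 143 solute carrier genes (y axis, percent) in each library (x axis), stacked by family with Slc25a5 apart. Slc25a5 takes 29.3 to 33.4% in wild type and 57.8 to 60.4% in knockout.

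The 14 genes that rose had a median level of 19.5 FPKM over the 6 libraries, the 22 that fell 2.45 FPKM and the 107 others 1.14 FPKM. Their median exon lengths were 3869, 4353 and 4729 bases. Across the 143 members the Spearman correlation of the fold change with exon length was -0.17, with GC content 0.23 and with mean FPKM 0.16, and across the genes tested with an annotated length it was -0.27, 0.10 and 0.28. Genes share the 6 libraries and are not independent replicates, so these are descriptions.

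The upstream sequences of 4 genes are shown because they are the called members that kept their call in every fit with 1 library left out, have a single RefSeq window and touch no annotated exon there. Each is the 250 bases before the RefSeq start in GRCm38.p6, read 5′ to 3′ on the gene's strand. These are Slc25a5 at chrX:36795347-36795596 on the plus strand and Slc2a8, a glucose transporter, at chr2:32982084-32982333 on the minus strand, which rose with TMM, and Slc25a12, an aspartate and glutamate carrier, at chr2:71367756-71368005 on the minus strand and Slc16a1, a lactate carrier, at chr3:104638414-104638663 on the plus strand, which fell. Capitals mark matches, on either strand, to the GC box GGGCGG, the box known as CCAAT, the E-box with the letters CACGTG, the hypoxia core with the letters ACGTG (contained in the E-box), the amino acid response element with the letters TTGCATCA, the cyclic AMP core with the letters TGACG and the TATA box with the letters TATAAA.
Slc25a5: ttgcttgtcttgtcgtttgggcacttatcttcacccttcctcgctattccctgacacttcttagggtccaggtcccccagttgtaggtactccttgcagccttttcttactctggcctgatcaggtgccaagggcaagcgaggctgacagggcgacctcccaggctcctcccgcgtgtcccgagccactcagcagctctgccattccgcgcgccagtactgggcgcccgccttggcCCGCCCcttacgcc
Slc2a8: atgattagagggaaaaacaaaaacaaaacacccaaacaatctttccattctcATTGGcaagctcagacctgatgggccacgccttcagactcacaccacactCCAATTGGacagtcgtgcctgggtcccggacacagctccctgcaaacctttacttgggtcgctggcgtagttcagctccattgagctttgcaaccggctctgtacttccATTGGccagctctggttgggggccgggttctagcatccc
Slc25a12: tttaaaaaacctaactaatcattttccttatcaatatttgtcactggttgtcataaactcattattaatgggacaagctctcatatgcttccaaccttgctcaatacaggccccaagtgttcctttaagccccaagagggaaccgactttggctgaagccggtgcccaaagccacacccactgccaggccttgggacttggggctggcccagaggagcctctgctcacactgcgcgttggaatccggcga
Slc16a1: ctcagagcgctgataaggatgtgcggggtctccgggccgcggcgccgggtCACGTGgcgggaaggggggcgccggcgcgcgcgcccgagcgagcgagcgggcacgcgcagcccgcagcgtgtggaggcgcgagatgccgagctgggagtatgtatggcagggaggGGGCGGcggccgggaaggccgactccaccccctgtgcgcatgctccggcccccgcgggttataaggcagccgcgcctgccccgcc
Slc25a5 held 1 GC box and Slc16a1 held 1 GC box and 1 E-box, which also counts as 2 matches to the hypoxia core, 1 on each strand. Slc2a8 held 4 CCAAT matches, of which 2 overlap on opposite strands, and Slc25a12 held none of the 7 motifs. A GC box was found in 32.7% of all 32851 windows of this length and CCAAT in 33.9%, the E-box in 6.02% and the hypoxia core in 16.6%. Of the 143 members 109 had a window, and some had several. Among windows of members that rose, 69.2% of 13 held a GC box, among those that fell 66.7% of 21, and among the others 61.4% of 114. CCAAT was in 61.5%, 33.3% and 31.6% of these windows, and the E-box in none of the 13, in 19.05% and in 16.7%. The hypoxia core was in 30.8%, 38.1% and 22.8%, and the cyclic AMP core in 30.8%, 19.05% and 21.9%, against 17.8% of all windows, the TATA box in none, 9.52% and 5.26%, against 12.4%, and the amino acid response element in none, none and 2.63%, against 0.79%. A match is a run of letters and not a shown binding site.

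The mitochondrial carrier family, Slc25, had 6 members that rose, 3 that fell and 23 that passed in neither direction, with a median log2 fold change of -0.04. The share called was 28.1%, against 31.7% of all genes tested. With total counts 1 rose and 26 fell, where 4.24% of all genes tested rose and 70.7% fell. The rises were those of Slc25a5, Slc25a4, Slc25a3 and Slc25a25, the oxoglutarate carrier Slc25a11 and the NAD carrier Slc25a51. Slc25a5 (ENSMUSG00000016319, GRCm38 chrX:36795651-36798807) encodes the ADP/ATP translocase of dividing cells, which hands ADP to the mitochondrial matrix in return for ATP. It stood at 1297, 1104 and 1087 CPM in wild-type libraries 1, 2 and 3 and at 4193, 4241 and 4456 CPM in knockout. The knockout values lay within a narrow band far above every wild-type value. The means were 1162 ± 117 and 4297 ± 140 CPM (SD, n = 3), a 3.70-fold rise, 1.89 ± 0.08 on the log2 scale (± SE here and below, edgeR adjusted p = 1.75e-07), and it was the one member that also rose with total counts, by 0.76 on the log2 scale (edgeR adjusted p = 5.31e-06). Slc25a5 has processed copies in the genome, and the listed copy Slc25a5-ps held 41, 2 and 4 counts in wild type and 6, 10 and 6 in knockout, so reads shared with such copies remain uncertain.

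Slc25a4 (chr8:46206797-46211284) is the related ADP/ATP translocase that prevails in heart and skeletal muscle. Its levels were 117, 115 and 111 CPM in wild type and 153, 161 and 172 CPM in knockout. Every knockout library was above every wild-type library, and the log2 fold change was 0.50 ± 0.07 (edgeR adjusted p = 0.000385), but with total counts it was -0.63 and called lower. The ratio of Slc25a5 to Slc25a4 counts within a library, which is free of scaling, was 11.1, 9.62 and 9.75 in the wild-type libraries and 27.4, 26.4 and 25.9 in the knockout ones. The pair therefore shifted towards Slc25a5 in all 3 knockout libraries, under either scaling.

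Slc25a3 (chr10:91116574-91124059), the carrier that brings phosphate into the matrix for ATP synthesis, was the second most abundant member by FPKM. It measured 217, 228 and 238 CPM in wild type and 453, 475 and 448 CPM in knockout. The groups were far apart with TMM, at a log2 fold change of 1.01 ± 0.06 (edgeR adjusted p = 2.08e-06), and close with total counts, at -0.12 (edgeR adjusted p = 0.121). Slc25a25, an exchanger of ATP-Mg for phosphate, rose from 5.71 ± 1.28 to 9.16 ± 1.40 CPM (n = 3 each, edgeR adjusted p = 0.0218, total counts -0.44). Its call was lost without wild-type library 2 or 3 or knockout library 1 or 2, at an adjusted p up to 0.0781.

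The malate-aspartate shuttle, which carries reducing equivalents from the cytosol into the mitochondrion, did not move as a unit. Its oxoglutarate and malate carrier Slc25a11 stood at 54.1, 46.5 and 47.5 CPM in wild type and 88.0, 73.8 and 73.1 CPM in knockout. All knockout values were higher, the log2 fold change being 0.67 ± 0.10 (edgeR adjusted p = 0.00075) with TMM and -0.47 with total counts. Exons of the opposite-strand gene Rnf167 overlap 8.92% of its exon bases, and the sources used here do not state whether counting used strand. The aspartate and glutamate carrier Slc25a12 went the other way, from 69.4, 83.5 and 73.8 CPM to 55.3, 52.6 and 55.4 CPM. No knockout value reached the lowest wild-type value, and the log2 fold change was -0.47 ± 0.08 (edgeR adjusted p = 0.00237). Its paralogue Slc25a13 had a mean of 4.005 ± 0.433 CPM against 3.89 ± 0.193 CPM in knockout (n = 3 each, edgeR adjusted p = 0.874). Within libraries the ratio of Slc25a11 to Slc25a12 counts was 0.779, 0.556 and 0.643 for wild type against 1.59, 1.40 and 1.319 for knockout, without overlap. These genes were called in opposite directions with groups apart, so this separation follows from their levels and is no further support.

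Among the carriers of cofactors, Slc25a51, the carrier of NAD, rose from 9.38 ± 1.46 to 14.3 ± 0.949 CPM (log2 fold change 0.61 ± 0.13, n = 3 each, edgeR adjusted p = 0.0077), where total counts gave -0.53. Slc25a26, which carries S-adenosylmethionine, and Slc25a32, which carries folate or flavin, passed in neither direction at log2 fold changes of 0.18 and -0.35.

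Of the carriers tied to iron and haem, Slc25a28 (mitoferrin 2, an iron importer) stood at 4.31, 2.93 and 3.52 CPM in wild type and 1.30, 2.204 and 2.54 CPM in knockout. The knockout values were all lower, but at an edgeR adjusted p of 0.0473 the call was lost in 5 of the 6 fits with a library left out, all but the one without knockout library 3, at an adjusted p up to 0.166. Slc25a38, the glycine carrier of haem synthesis, measured 3.68 ± 0.747 and 3.58 ± 0.560 CPM (n = 3 each) and Slc25a39, which carries glutathione, 123 ± 2.51 and 134 ± 28.4 CPM (n = 3 each), and the edgeR adjusted p was 0.923 and 0.522. Without knockout library 3 Slc25a39 was called higher, at a log2 fold change of 0.29 in place of 0.13 (edgeR adjusted p = 0.0114). The erythroid marker sum given above was higher in knockout through its globin genes, while the erythroid regulator Klf1 fell, from 18.2 to 13.2 CPM. Its part in these values was not tested.

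The 23 uncalled members of the family ranged from -1.17 for Slc25a43 (edgeR adjusted p = 0.0518) to 0.74 for Slc25a22, a glutamate carrier (adjusted p = 0.101). Slc25a1, which exports citrate for lipid synthesis, had 45.7 ± 3.28 CPM against 53.2 ± 20.1 CPM in knockout (n = 3 each), a spread wider than the difference. Slc25a20, the acylcarnitine carrier of fatty acid oxidation, had 14.7 ± 0.981 CPM against 11.9 ± 1.17 CPM in knockout (n = 3 each, edgeR adjusted p = 0.0628). Slc25a10, a dicarboxylate carrier, had 30.04 ± 3.49 CPM against 36.7 ± 1.498 CPM (n = 3 each, edgeR adjusted p = 0.0511). Without Slc25a5 the summed level of the family was 891 ± 14.4 CPM against 1174 ± 53.9 CPM in knockout (n = 3 each), and as a share of all counts it was 0.132 ± 0.00546% against 0.0792 ± 0.00363%.

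**Figure D3:**
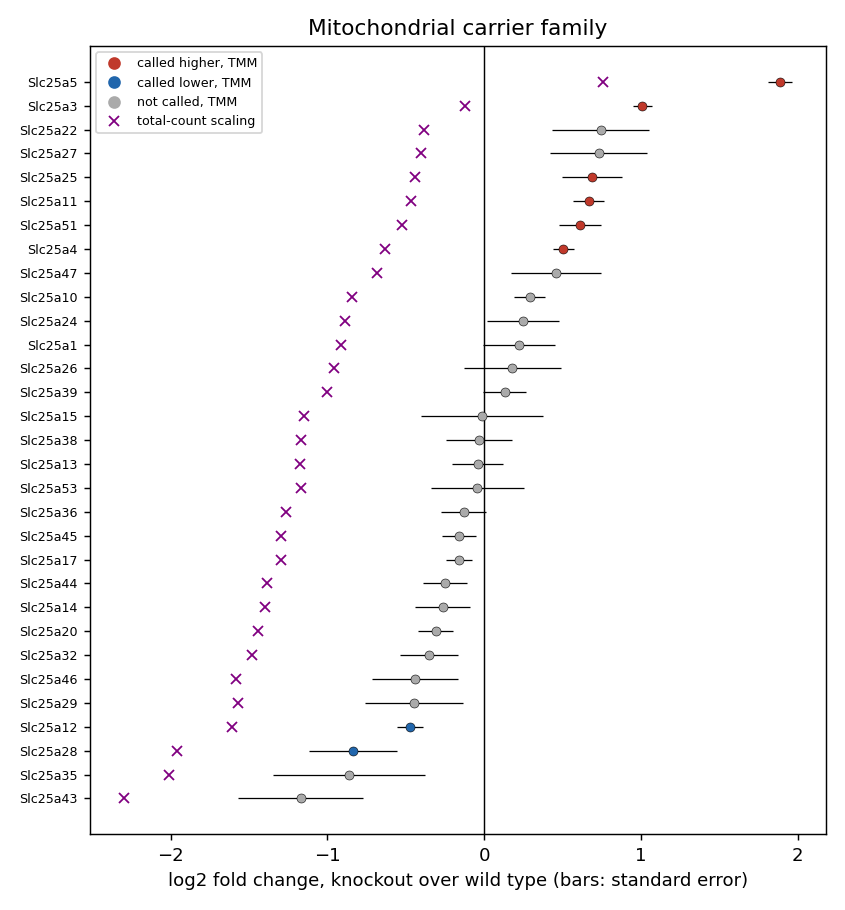
Log2 fold change of 31 of the 32 Slc25 genes (x axis, knockout over wild type) with its standard error, ordered by value, with red and blue points for calls with TMM scaling and crosses for the value with total counts. The crosses of all plotted genes but Slc25a5 lie left of 0, so the TMM rises of the 5 others carry a negative value with total counts.

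The list of genes that import and seat carriers, which make up the translocase subunits and small chaperones of the mitochondrial membranes and the outer membrane channels, had 8 of 18 members higher and 3 lower, with a median of 0.15. With total counts none rose and 17 fell. Over all genes tested 17.2% rose and 14.4% fell with TMM, and 4.24% rose and 70.7% fell with total counts. Vdac1, an outer membrane channel through which adenine nucleotides pass, rose with TMM from 37.6 ± 5.53 to 71.8 ± 4.40 CPM, and Tomm22, an import receptor, from 37.02 ± 2.40 to 59.7 ± 3.20 CPM (n = 3 each). Their log2 fold changes were -0.20 and -0.44 with total counts, and Tomm22 was called lower. Tomm40, the channel of the outer membrane translocase, fell from 62.5 ± 4.17 to 18.7 ± 9.45 CPM (n = 3 each, log2 fold change -1.73, edgeR adjusted p = 0.0027), so the list did not move one way. Of 17 transporters that carry other names, 4 rose and 3 fell, with a median of -0.17, and with total counts none rose and 13 fell. The rises were the pyruvate carrier subunits Mpc1 (0.64) and Mpc2 (0.47), the carrier-like protein Mtch2 (0.61) and the uncoupling protein homologue Ucp2 (1.07), in log2 fold change, each below 0 with total counts (-0.49, -0.66, -0.52 and -0.07).

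Of 10 carriers grouped with sugars 1 rose and 2 fell, a share called close to the 31.7% of all genes tested. Of the 4 Slc2 genes, which encode facilitative glucose transporters, 1 rose and none fell, with a median of 0.32, while with total counts none rose and 3 fell. Slc2a8 (chr2:32972990-32982083), a transporter held on membranes inside the cell, was at 5.82, 3.84 and 3.52 CPM in wild type and 9.26, 8.93 and 7.10 CPM in knockout. The lowest knockout value lay above the highest wild-type value, and the log2 fold change was 0.94 ± 0.21 (edgeR adjusted p = 0.00809), against -0.18 with total counts. The rise was called in every fit with 1 library left out.

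The surface glucose transporters were not called with TMM. Slc2a1 (GLUT1) was at 3.87, 2.99 and 4.58 CPM in wild type and 3.77, 4.66 and 2.33 CPM in knockout, with the groups intermixed. Slc2a3 (GLUT3) was at 5.72, 6.33 and 5.38 CPM against 9.08, 6.44 and 7.76 CPM, the knockout values lying just above (log2 fold change 0.42 ± 0.16, edgeR adjusted p = 0.0752, total counts -0.72). Slc2a6, a lysosomal transporter, was at 5.64 ± 1.51 and 6.60 ± 1.25 CPM (n = 3 each). Without knockout library 2 Slc2a3 was called higher too (log2 fold change 0.54, edgeR adjusted p = 0.0399), as it was with the length and GC correction (0.58, adjusted p = 0.0195). Slc50a1, a sugar transporter of the SWEET type, had 51.4 ± 5.13 CPM against 45.7 ± 3.75 CPM in knockout (n = 3 each, edgeR adjusted p = 0.235).

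Of the other carriers grouped with sugars, the inositol transporter Slc5a11 fell from 6.97 ± 0.228 to 4.76 ± 0.341 CPM (n = 3 each, edgeR adjusted p = 0.012). Slc5a6, of the same family but a carrier of biotin and pantothenate, fell from 6.11 ± 0.182 to 4.17 ± 0.205 CPM (n = 3 each, edgeR adjusted p = 0.0139), and without wild-type library 2 its adjusted p was 0.0585. Exons of Atraid on the opposite strand overlap 9.92% of its exon bases.

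The amino acid transporters (families Slc1, Slc3, Slc6, Slc7, Slc36, Slc38 and Slc43) had 2 of 23 members higher and 4 lower. This is a share called of 26.1%, against 31.7% of all genes tested. Within libraries the heavy chain of the Slc3a2 complexes gained on its 2 called light chains, whatever the scaling. Slc3a2 (chr19:8706882-8723369), the heavy chain also known as CD98, was at 185, 169 and 178 CPM in wild type and 305, 302 and 281 CPM in knockout. All knockout libraries were above all wild-type libraries, at a log2 fold change of 0.74 ± 0.06 (edgeR adjusted p = 2.38e-05) with TMM and -0.39 with total counts.

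The Slc7 family had 3 members lower, none higher and 4 in neither direction, with a median of -0.26, and 6 of 7 were lower with total counts. Called were 42.9% of these few genes, against 31.7% of all genes tested. Only 1 of the 3 calls was left without any one of the libraries other than knockout library 3. Slc7a6 (chr8:106168857-106198706), a light chain that exchanges basic for neutral amino acids, was at 33.8, 36.8 and 33.6 CPM in wild type and 26.3, 22.9 and 24.7 CPM in knockout. The groups did not overlap, the log2 fold change was -0.49 ± 0.09 (edgeR adjusted p = 0.00219), and this call remained without any single library.

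Slc7a5 (LAT1, chr8:121881150-121907694), the light chain for leucine and other large neutral amino acids, was at 4.79, 4.198 and 4.55 CPM in wild type and 1.73, 2.88 and 3.52 CPM in knockout. The knockout values were all lower and more widely spread than the wild-type values. The log2 fold change was -0.74 ± 0.25, and at an edgeR adjusted p of 0.0488 the call was lost without wild-type library 1, 2 or 3 or knockout library 1 or 2, at an adjusted p up to 0.136, and with DESeq2. Slc7a4, an orphan of the cationic branch, fell from 11.98 ± 0.633 to 8.37 ± 1.56 CPM (n = 3 each, edgeR adjusted p = 0.022), was not called without the same 5 libraries in turn (adjusted p up to 0.0787), and shares 13.3% of its exon bases with the opposite-strand gene P2rx6. The cystine light chain Slc7a11 was at 1.40 ± 0.167 and 1.75 ± 0.151 CPM, the light chains Slc7a7 at 1.99 ± 0.829 and 2.31 ± 0.826 CPM and Slc7a8 at 1.64 ± 0.284 and 1.82 ± 0.572 CPM, and the arginine transporter Slc7a1 at 9.53 ± 0.957 and 7.97 ± 1.002 CPM (n = 3 each), none called.

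Within libraries the ratio of Slc3a2 to Slc7a6 counts was 5.47, 4.61 and 5.29 for wild type against 11.6, 13.2 and 11.4 for knockout, so the groups were apart whatever the scaling. The ratio of Slc3a2 to Slc7a5 counts was 38.6, 40.4 and 39.1 for wild type against 177, 105 and 80.02 for knockout. Both ratios were higher in each knockout library. Slc3a2 was called higher and both light chains lower, with groups apart, so this separation follows from their levels and is no further support. These are ratios of counts and not of molecules, since they are not divided by length.

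**Figure D4:**
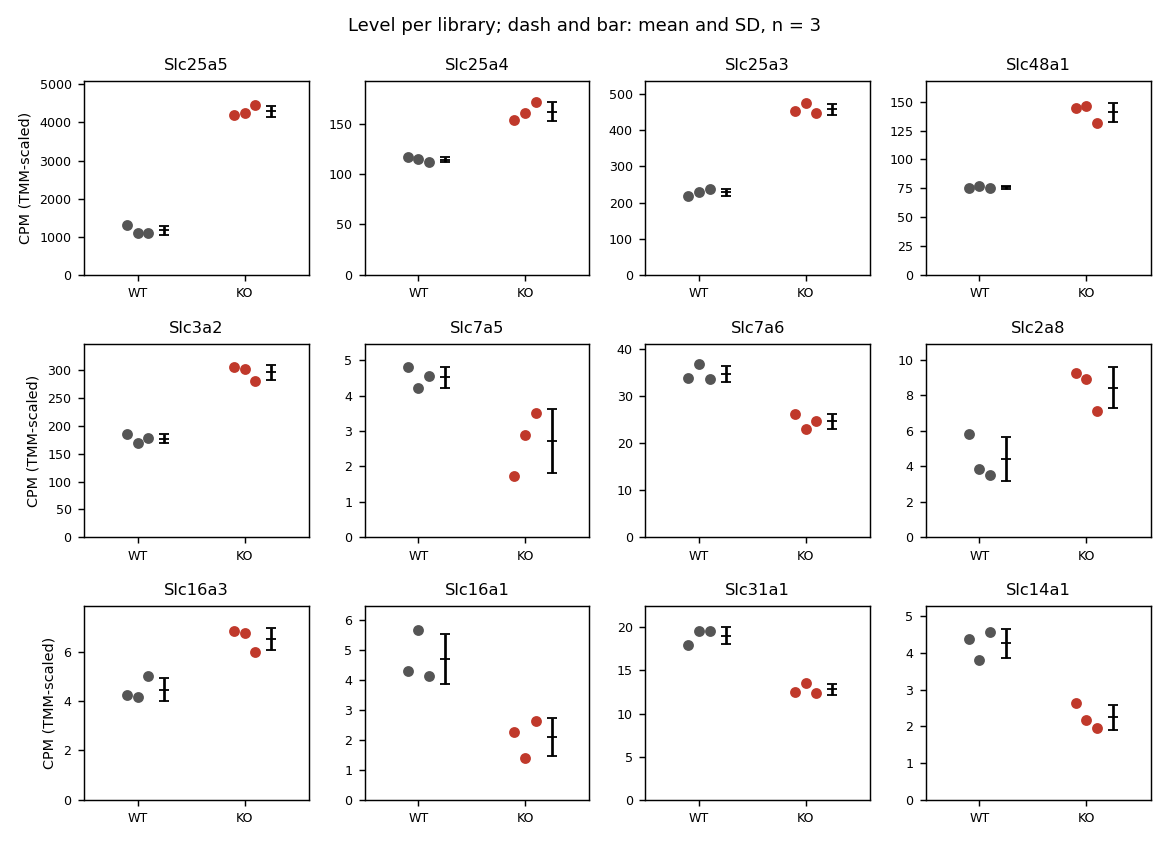
TMM-scaled CPM (y axis, from 0) of 12 solute carrier genes in each library, grey for wild type and red for knockout, with the mean and SD of each group beside the points (n = 3). In every panel the groups do not overlap, but with total counts Slc25a4, Slc25a3, Slc48a1, Slc3a2, Slc2a8 and Slc16a3 have a log2 fold change below 0.

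The Slc38 family, sodium-coupled carriers of glutamine, alanine and related amino acids, had 1 member higher, 1 lower and 4 in neither direction, with a median of -0.02 and all 6 lower with total counts. Its share called was 33.3%, against 31.7% of all genes tested. The summed level of the family was 95.1 ± 5.04 CPM against 95.1 ± 0.790 CPM in knockout (n = 3 each). Slc38a10 was at 27.8, 24.8 and 27.97 CPM against 35.8, 34.5 and 30.6 CPM, and Slc38a5, which moves glutamine and glycine in exchange for protons, at 8.79, 8.69 and 6.57 CPM against 4.49, 4.92 and 6.30 CPM. Both pairs of groups were apart by a small margin. The log2 fold change of Slc38a10 was 0.33 ± 0.09 (edgeR adjusted p = 0.0259, total counts -0.81), and its call was lost without wild-type library 2 or knockout library 1 or 2, at an adjusted p up to 0.0948. For Slc38a5 it was -0.62 ± 0.18 (edgeR adjusted p = 0.0275), and the call was lost without wild-type library 1 or 2 or knockout library 1 or 2, at an adjusted p up to 0.111.

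The glutamine importers of the cell surface passed in neither direction with all 6 libraries. Slc38a1 stood at 37.02 ± 3.57 and 32.3 ± 1.28 CPM, Slc38a2, which is induced by amino acid shortage, at 15.1 ± 2.27 and 15.6 ± 1.36 CPM, and Slc1a5 (ASCT2) at 38.1 ± 1.19 and 30.3 ± 9.08 CPM (n = 3 each), and the Slc1a5 knockout libraries were spread from 22.1 to 40.1 CPM. Without knockout library 1 Slc1a5 was called lower, at a log2 fold change of -0.58 in place of -0.33 (edgeR adjusted p = 0.0096 in place of 0.206). Slc38a9, the lysosomal arginine sensor upstream of mTORC1, was at 5.78 ± 1.08 and 5.45 ± 0.777 CPM (n = 3 each). Slc43a3, grouped here by family although it carries purine nucleobases, was at 116 ± 1.36 and 116 ± 12.2 CPM (n = 3 each).

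Of 19 tested genes of the amino acid response, the programme driven by ATF4, 7 rose and 2 fell, with a median of 0.07, and with total counts 1 rose and 16 fell. Over all genes tested 17.2% rose and 14.4% fell with TMM, and 70.7% fell with total counts. Atf4 itself had 53.2 ± 2.24 CPM against 93.1 ± 7.65 CPM in knockout, and Phgdh, the first enzyme of serine synthesis, 227 ± 23.97 CPM against 642 ± 36.6 CPM (n = 3 each, log2 fold change of Phgdh 1.503 with TMM and 0.37 with total counts, called in both). Atf4 was called lower with total counts, at a log2 fold change of -0.33. Asns, asparagine synthetase, fell from 22.2 ± 2.05 to 16.9 ± 2.09 CPM and Nupr1, a stress-induced nuclear protein, from 16.6 ± 2.12 to 7.96 ± 0.342 CPM (n = 3 each). The solute carriers known as targets of this programme were divided with TMM, with Slc3a2 higher, Slc7a5 lower and Slc7a11, Slc7a1 and Slc38a2 in neither direction. The Slc7a5 call was kept in only 1 of the 6 fits with a library left out, and was lost with DESeq2. With total counts Slc3a2, Slc7a5, Slc7a11 and Slc38a2 were all called lower, at log2 fold changes of -0.39, -1.87, -0.80 and -1.09. Of 21 genes of lysosomal amino acid sensing 2 rose (Lamtor1 and Lamtor4, of the Ragulator scaffold) and 1 fell (Rptor, a subunit of mTORC1), with a median of -0.22, and with total counts none rose and 20 fell.

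The lactate carriers also diverged. The Slc16 family had 1 of 5 members higher and 1 lower, where 31.7% of all genes tested were called. Slc16a1 (MCT1, chr3:104638668-104658462), which carries lactate and pyruvate in either direction, was at 4.29, 5.66 and 4.14 CPM in wild type and 2.26, 1.38 and 2.65 CPM in knockout. Every knockout value was under every wild-type value, at a log2 fold change of -1.17 ± 0.26 (edgeR adjusted p = 0.00764), and the call remained without any single library. Slc16a3 (MCT4, chr11:120948480-120960868), the lactate exporter of glycolytic cells, was at 4.26, 4.15 and 4.999 CPM against 6.82, 6.75 and 5.99 CPM. Here the knockout values were all higher with TMM, at 0.54 ± 0.15 (edgeR adjusted p = 0.0197), and lower with total counts, at -0.59. The call was lost without wild-type library 2 or knockout library 1 or 2, at an adjusted p up to 0.0704. The ratio of Slc16a3 to Slc16a1 counts within a library was 0.993, 0.733 and 1.21 for wild type against 3.02, 4.88 and 2.26 for knockout. The shift of the pair towards Slc16a3 was thus seen in all 3 knockout libraries without any scaling. Since the 2 genes were called in opposite directions with groups apart, this separation follows from their levels and is no further support.

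All 3 listed partner proteins of these carriers rose with TMM. Bsg (basigin), the partner of both carriers, was at 401 ± 32.0 and 725 ± 46.4 CPM, Emb (embigin) at 187 ± 18.9 and 381 ± 16.3 CPM and Nptn (neuroplastin) at 4.90 ± 0.268 and 9.58 ± 1.96 CPM (n = 3 each), with log2 fold changes of 0.86, 1.03 and 0.97. With total counts these became -0.28, -0.11 and -0.17, and Bsg was called lower.

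**Figure D5:**
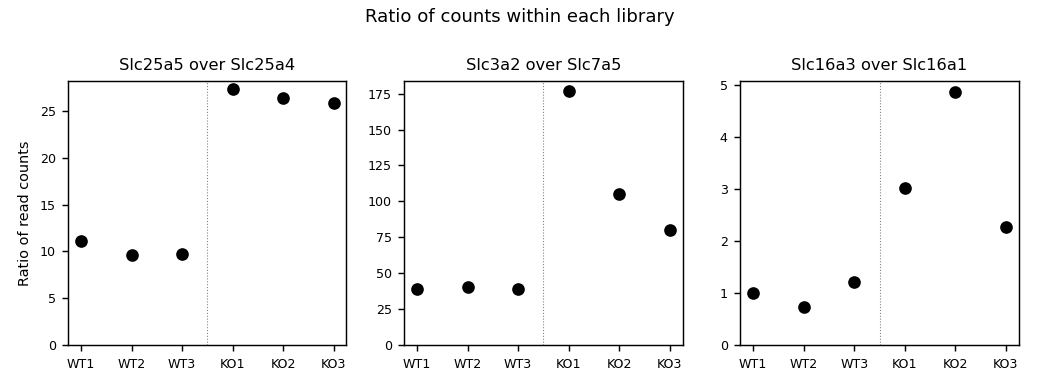
Ratio of read counts of 2 solute carrier genes within each library (y axis, from 0), which is independent of library scaling, for Slc25a5 over Slc25a4, Slc3a2 over Slc7a5 and Slc16a3 over Slc16a1. All 3 ratios are higher in each knockout library, and the knockout values of the last 2 pairs are widely spread. The genes of these last 2 pairs were called in opposite directions, so their separation follows from the levels.

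Among transporters of metals and haem, Slc48a1 (HRG1, chr15:97778520-97792692), which moves haem out of endosomes and phagolysosomes into the cytosol, stood at 75.2, 76.9 and 75.2 CPM in wild type and 145, 146 and 132 CPM in knockout. The wild-type values were nearly equal and the knockout values all far above, at a log2 fold change of 0.90 ± 0.07 (edgeR adjusted p = 8.54e-06). With total counts the sign turned, at -0.24 (edgeR adjusted p = 0.0121). The macrophage marker sum was 115 to 120 CPM in wild type and 111 to 117 CPM in knockout, but its genes did not move together. Cd68 fell from 56.4 to 33.3 CPM, and Vcam1 rose from 33.4 to 52.0 CPM with TMM and was called lower with total counts. The part of macrophages in the Slc48a1 values was not tested. Slc31a1 (CTR1), the copper importer, fell from 17.9, 19.6 and 19.6 CPM to 12.5, 13.6 and 12.4 CPM. Those groups were well apart, at -0.57 ± 0.09 (edgeR adjusted p = 0.00147). Slc11a2 (DMT1), the iron importer of erythroid cells, was at 7.01 ± 1.19 and 6.91 ± 0.688 CPM (n = 3 each).

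The 15 zinc transporters (Slc30 exporters and Slc39 importers) had 1 member higher and 3 lower, with a median of -0.34. Called were 26.7% of them, against 31.7% of all genes tested. Slc39a9, a zinc importer of the cell surface and Golgi, fell from 10.9 ± 0.0950 to 7.51 ± 0.525 CPM (n = 3 each, log2 fold change -0.54, edgeR adjusted p = 0.00534), and Erh on the opposite strand covers 4.52% of its exon bases. Slc30a7 and Slc30a6, which load zinc into the Golgi, fell from 24.8 ± 2.03 to 19.4 ± 0.896 CPM and from 9.41 ± 1.15 to 6.61 ± 0.885 CPM (n = 3 each, edgeR adjusted p = 0.0175 and 0.0304). The Slc30a7 call was lost without wild-type library 2 or 3 or knockout library 1 (adjusted p up to 0.0853), and that of Slc30a6 without wild-type library 1 or 3 or knockout library 2 or 3 (adjusted p up to 0.107). With the length and GC correction their log2 fold changes went from -0.36 to -0.12 and from -0.51 to -0.29 (edgeR adjusted p = 0.317 and 0.226). Opposite-strand gene models cover 16.0% of the exon bases of Slc30a7.

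Slc39a7 (ZIP7), which releases zinc from the endoplasmic reticulum, was at 79.0, 64.0 and 80.5 CPM in wild type and 120, 114 and 90.5 CPM in knockout. The knockout values were higher with TMM (log2 fold change 0.54 ± 0.12, edgeR adjusted p = 0.00929), and with total counts lower (-0.60). The gene model Gm20427 on the same strand covers 80.7% of its exon bases, so how reads were divided between the 2 is uncertain.

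Falls were also found for carriers of urea and of chloride. Slc14a1, the urea transporter of red cells, was at 4.39, 3.82 and 4.58 CPM in wild type and 2.63, 2.18 and 1.95 CPM in knockout, without overlap (log2 fold change -0.92 ± 0.19, edgeR adjusted p = 0.00586), and the fall was called without any single library. The erythroid markers Klf1, Rhd and Ermap fell too, and Hbb-bs and Hba-a1 rose. Their part was not tested. Slc4a1, the anion exchanger of red cells, lay under the count minimum. Slc12a7, a potassium chloride cotransporter, was at 2.42, 1.06 and 1.30 CPM in wild type and 0.690, 0.593 and 0.731 CPM in knockout. The knockout values were lower by a log2 fold change of -1.24 ± 0.40 (edgeR adjusted p = 0.04), and without any one library other than wild-type library 2 the call was lost, at an adjusted p up to 0.181.

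The remaining called members each changed by less than 2-fold. Among 5 bicarbonate and anion transporters 2 fell, the chloride bicarbonate exchanger Slc4a2 from 5.99 ± 0.854 to 4.02 ± 0.654 CPM and the sodium-driven Slc4a8 from 17.2 ± 2.12 to 12.5 ± 1.43 CPM (n = 3 each, edgeR adjusted p = 0.0378 and 0.0235). Slc4a2 lost its call without wild-type library 1 or 3 or knockout library 1 or 3 and Slc4a8 without wild-type library 1 or 3 or knockout library 2, at an adjusted p up to 0.157 and 0.0941, and opposite-strand exons cover 13.7% of those of Slc4a2.

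Slc15a4, a lysosomal histidine and peptide transporter needed for signalling by endosomal Toll-like receptors, fell from 19.3 ± 0.231 to 13.5 ± 2.93 CPM (n = 3 each, edgeR adjusted p = 0.0256) and was called in only 1 of the 6 fits with a library left out, that without knockout library 1. Slc35a1, which brings CMP-sialic acid into the Golgi, fell from 9.60 ± 0.861 to 6.55 ± 1.55 CPM (n = 3 each, edgeR adjusted p = 0.0397), kept without knockout library 2 alone, and Slc66a2, a membrane protein of the PQ-loop type, fell from 32.9 ± 2.15 to 25.8 ± 2.81 CPM (n = 3 each, edgeR adjusted p = 0.0263), kept without knockout library 3 alone. The largest adjusted p of these 3 genes in such fits was 0.0786, 0.144 and 0.127. Slc49a4, a lysosomal transporter, fell from 4.79 ± 0.485 to 3.18 ± 0.432 CPM (n = 3 each, edgeR adjusted p = 0.0309) and lost the call without wild-type library 2 or 3 or knockout library 2 (adjusted p up to 0.117).

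Of the nucleoside and vitamin carriers, Slc28a2, a purine nucleoside importer, and Slc52a2, a riboflavin transporter, rose with TMM, from 14.9 ± 0.611 to 19.7 ± 3.14 CPM and from 9.41 ± 0.213 to 12.4 ± 0.829 CPM (n = 3 each, edgeR adjusted p = 0.033 and 0.0191), and had -0.73 and -0.74 with total counts. The Slc28a2 call was lost without any one library other than knockout library 3 (adjusted p up to 0.117), and that of Slc52a2 without wild-type library 2 or 3 or knockout library 2 (adjusted p up to 0.0688). Slc28a2 has a close paralogue in the table, Slc28a2b, so its reads may be shared. The equilibrative nucleoside transporter Slc29a1 was at 55.2, 58.8 and 55.4 CPM in wild type and 50.5, 52.01 and 52.4 CPM in knockout. Its groups did not overlap, yet the difference was not called (log2 fold change -0.13, edgeR adjusted p = 0.196), and the same held for 21 uncalled members in all, 9 with knockout above and 12 with knockout below. Groups apart were common over all 15474 genes tested, called or not, with 3439 above and 3768 below.

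No member was called among the 6 genes grouped by family number as phosphate transporters (Slc17, Slc20 and Slc37) or the 5 organic ion transporters of Slc22. The same held for the 4 sodium-proton exchangers of Slc9 and the 3 lipid and choline carriers, although with total counts 17 of these 18 genes were called lower. The phosphate carrier Slc25a3, which rose with TMM, was counted with Slc25. Slc18a2, which loads histamine and other amines into granules of mast cells and basophils, had 4.06 ± 0.939 CPM against 5.06 ± 0.413 CPM in knockout (n = 3 each, edgeR adjusted p = 0.281). Of the 8 eosinophil, basophil and mast cell markers given above 6 rose with TMM, and Cpa3 and Ms4a2 were not called. Slc45a3 had the largest rise that was not called, from 1.05 ± 0.442 to 2.17 ± 0.194 CPM (n = 3 each, edgeR adjusted p = 0.0538).

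In the authors' deposited table the 143 members included 14 with a higher and 16 with a lower value at an adjusted p under 0.05, and it classed 3 as UP, 3 as DOWN and 137 as STABLE.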

How the data were processed

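The authors deposited 1 table of 18491 genes with raw read counts and FPKM values per library and their own DESeq2 columns. The tools in the submitters' processing notes were HISAT2 2.2.1 and featureCounts 2.0.1, after fastp 0.22.0, with DESeq2 1.32.0 for the authors' comparison, and the build was mm10. Options, and whether counting used strand, are not stated in the sources used here. The deposited length-scaled columns have no named unit. They were read as FPKM, since in each library at least 98.7% of single-transcript genes lay within 1% of a fixed multiple of an FPKM rebuilt from counts and exon length. The authors' deposited log2 fold changes and p-values were used only for the counts quoted from that table, and its mean signal per gene (baseMean) and its test score, as deposited, were not used.

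Members and gene lists were chosen with earlier results of these data known, so no count over them is an independent test. Counts were fitted with edgeR 4.0.16 in R 4.3.3 (filterByExpr, TMM, quasi-likelihood test with group as the only term, two-sided), with Benjamini-Hochberg adjustment over 15474 genes and calls at an adjusted p under 0.05. Alternatives were total-count scaling, DESeq2 1.42.0, no filter, a replicate block, correction for exon length and GC content, and leaving out each library. The procedure was run on simulated data in which few genes changed, upwards and downwards alike. That run did not test the choice between TMM and total counts. Gene positions, lengths and overlaps come from GENCODE vM21 (GRCm38, the assembly also called mm10), in which 18457 IDs matched, and upstream sequences from RefSeq. Overlap with another gene's exons was found for 44 members, on the opposite strand for 36. Totals of 42235077 to 58106099 counts make counting error small for abundant members and larger near 1 CPM.

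Genes were named by rule: in Slc25, Slc2, Slc7 and Slc38 the 2 of highest FPKM and up to 6 called of lowest p, elsewhere the 8 largest called rises and 8 largest called falls, the called gene of lowest p in families of 5 or more, and a set of known carriers. The other called members and the uncalled members named beyond these were added after their values were seen. Some member and marker genes are counted in the totals but not reported here by name.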

Additional observations from a re-analysis of the deposited data

How the results depend on the processing

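With DESeq2 17 members were higher and 19 lower, and without a filter on low counts 14 and 21. With total counts, which shift the median of all genes by -1.13, the counts became 1 higher and 128 lower (Slc25 1 and 26, Slc2 0 and 3, Slc7 0 and 6, Slc38 0 and 6), the member median became -1.21, and these genes turned negative: Slc2a3 (-0.72), Slc2a6 (-0.91), Slc2a8 (-0.18), Slc3a2 (-0.39), Slc7a11 (-0.80), Slc16a3 (-0.59), Slc25a3 (-0.12), Slc25a4 (-0.63), Slc25a11 (-0.47), Slc25a39 (-1.005), Slc28a2 (-0.73), Slc38a2 (-1.09), Slc38a10 (-0.81), Slc39a7 (-0.60), Slc48a1 (-0.24) and Slc52a2 (-0.74). The length and GC correction gave 27 higher and 12 lower (Slc2 2 higher, Slc7 1 lower), a member median of 0.033, and positive values for Slc2a1 (0.033), Slc25a38 (0.022), Slc29a1 (0.0016) and Slc38a1 (0.038). The cause of these changes was not tested beyond the scaling itself.

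Deviations of same-numbered libraries from their group means correlated at 0.041, -0.0051 and 0.0477, and those of differently numbered ones at -0.0755 to 0.0288. With 3 libraries per group these values cannot settle whether replicate numbers pair the libraries. With a replicate block 15 members were higher and 18 lower, and 0 Slc38 members were lower. Leaving out 1 library gave 9 to 18 higher and 10 to 21 lower, with 1 to 2 Slc2 genes higher, 1 to 3 Slc7 genes lower, and 0 to 1 Slc38 genes higher and 0 to 1 lower. Over all genes these fits gave 2226 to 2542 higher and 1356 to 2142 lower, against 2669 and 2229 with all 6 libraries. In those fits Slc2a1, Slc25a38 and Slc38a2, none of them called in the fit of all libraries, changed sign, with ranges of -0.32 to 0.14, -0.17 to 0.14 and -0.040 to 0.17.

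Genes near 1 CPM rest on few reads, and a change in them of the size seen in abundant members was not always detectable at this depth.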

Other observations

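The deposited FPKM values and the deposited counts gave different fold changes for a few members, both scaled by library size and neither by TMM. For 117 of 143 members the ratio of knockout to wild-type mean FPKM lay within 10% of the same ratio of counts scaled by library totals, and for 5 the 2 ratios differed by more than 1.5 times. Slc2a3, the neuronal and leukocyte glucose transporter GLUT3, had an FPKM ratio of 0.332 and a count ratio of 0.607. Dividing its counts by its FPKM and by the library size that single-transcript genes imply gives the exon length behind the FPKM, which was 2638 to 3425 bases in the 3 wild-type libraries and 5343 to 6224 bases in the 3 knockout libraries, where all its annotated exons cover 7245 bases. The groups do not overlap in this implied length. The magnesium transporter Slc41a1 also had no overlap, with 1976 to 2785 bases in wild type and 3220 to 4749 bases in knockout, and Slc46a3 had 1650 to 2436 and 1044 to 1519 bases. For Slc26a6 and Slc23a2 the implied lengths of the groups overlapped. The sources used here do not state how the length behind each FPKM was set, and use of different transcripts was not tested. These genes were chosen after their values were seen.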
